A study of Homo sapiens with 4 samples.

Results

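The departure from additivity of arsenic trioxide and GSK458 was measured in TOV21G cells, as the part of each gene's level under both drugs that the single-drug differences do not add up to. For each gene it was the level with both drugs, minus that with arsenic trioxide, minus that with GSK458, plus that of the control. Levels were log2(FPKM + 1), where FPKM is fragments per kilobase of transcript, scaled for the size of the library. On this scale additive differences mean that the single-drug fold changes multiply. A departure of -1 places the combination 2-fold below that product, and a departure of 1 places it 2-fold above. Small RNA symbols and genes that averaged under 1 FPKM across the 4 libraries were left out, which kept 12200 of the 26255 gene symbols of the deposited table.

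TOV21G is a human line from an ovarian clear cell carcinoma, and all 4 cultures are of this line. The control received no drug. The second culture received As2O3 (arsenic trioxide) at 1 µM for 48 h, the third GSK458, an inhibitor of PI3K and mTOR, at 0.1 µM for 48 h, and the last received both at these doses for 48 h. No time is stated for the control, and the series title speaks of a synergy of the drugs. There was 1 library in each group, so the values carry no replicate error and no test was made, and every statement describes these 4 libraries only. How far separate cultures of 1 group would differ was not measured. In RNA from whole cultures, fewer cells with a transcript and less of it per cell cannot be told apart.

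Arsenic trioxide binds thiols and is known to release NRF2, the factor that drives antioxidant genes such as HMOX1. It also sets off the integrated stress response, in which phosphorylation of the initiation factor eIF2 favours translation of ATF4, a factor that raises genes for amino acid supply and for stress, such as DDIT3 and CHAC1. mTOR, a kinase that promotes translation and growth, also supports ATF4, while PI3K and AKT hold back FOXO factors and drive cell cycle entry. The 2 drugs therefore meet at known points, and a gene that both of them touch can depart from additivity.

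Some of the departing genes hold matches to known promoter elements, shown here because the gene groups below are built around the factors that bind them. Only genes with a match are shown. The sequences are the 250 bases before the start site in RefSeq on GRCh38.p14, matched by gene symbol because the deposited values were made on hg19. Of the members, 9820 of 12200 had a window. Capitals mark matches, on either strand, to TGATGNAA (the C/EBP-ATF response element, bound by ATF4) in CHAC1, ASNS and ATF3, to GGGA, 4 bases of any kind and CC (the NF-kB element) in CXCL5 and CCL20, and to TTTGAA (the cell cycle homology region) in MKI67. Both CXCL5 matches overlap, and its capitals cover them together. The windows of DDIT3, TRIB3, PHGDH and MTHFD2, genes also linked to ATF4, held no TGATGNAA. The ATF3 window shown belongs to an upstream start site, and the window at a later start site held none either.
CHAC1, chr15:40953221-40953470, plus strand: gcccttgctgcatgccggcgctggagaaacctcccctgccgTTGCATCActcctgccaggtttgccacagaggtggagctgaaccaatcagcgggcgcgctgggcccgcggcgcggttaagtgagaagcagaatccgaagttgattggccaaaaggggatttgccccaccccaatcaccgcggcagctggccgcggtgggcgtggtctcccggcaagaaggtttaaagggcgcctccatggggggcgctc
ASNS, chr7:97872409-97872658, minus strand: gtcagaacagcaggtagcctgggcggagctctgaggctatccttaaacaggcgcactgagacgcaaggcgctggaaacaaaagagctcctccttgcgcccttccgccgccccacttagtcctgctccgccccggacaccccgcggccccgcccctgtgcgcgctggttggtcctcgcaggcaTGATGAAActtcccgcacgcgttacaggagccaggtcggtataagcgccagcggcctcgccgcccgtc
ATF3, chr1:212565157-212565406, plus strand: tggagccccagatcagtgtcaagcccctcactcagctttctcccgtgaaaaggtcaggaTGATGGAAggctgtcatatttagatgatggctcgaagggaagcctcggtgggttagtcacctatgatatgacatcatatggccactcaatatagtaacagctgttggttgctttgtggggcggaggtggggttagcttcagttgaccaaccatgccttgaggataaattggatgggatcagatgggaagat
CXCL5, chr4:73998678-73998927, minus strand: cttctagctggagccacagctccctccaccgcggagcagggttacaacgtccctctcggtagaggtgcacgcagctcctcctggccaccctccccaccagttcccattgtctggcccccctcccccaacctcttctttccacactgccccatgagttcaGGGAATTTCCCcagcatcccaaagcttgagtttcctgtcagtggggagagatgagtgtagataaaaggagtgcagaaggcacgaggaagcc
CCL20, chr2:227813592-227813841, plus strand: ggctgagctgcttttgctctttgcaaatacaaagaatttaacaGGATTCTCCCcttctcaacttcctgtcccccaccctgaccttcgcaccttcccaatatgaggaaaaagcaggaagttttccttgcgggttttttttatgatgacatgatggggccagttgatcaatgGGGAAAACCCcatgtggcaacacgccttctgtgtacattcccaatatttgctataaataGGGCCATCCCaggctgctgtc
MKI67, chr10:128126424-128126673, minus strand: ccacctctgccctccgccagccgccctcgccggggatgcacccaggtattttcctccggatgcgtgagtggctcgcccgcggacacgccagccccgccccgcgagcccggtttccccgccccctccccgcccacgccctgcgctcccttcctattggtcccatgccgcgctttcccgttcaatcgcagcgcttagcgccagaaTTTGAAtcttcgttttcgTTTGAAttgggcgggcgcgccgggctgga

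A match describes the letters in a window and shows no binding. In windows of 300 bases (250 before and 50 after the start), TGATGNAA stood in 3.62% of all 35116 RefSeq windows, in 1.83% of the members' 14284 windows and in 12 of 257 windows of the genes at least 2-fold below additivity (4.67%). It stood in 4 of 26 windows of the integrated stress response regulators and in 4 of 17 of the serine, asparagine and one-carbon enzymes. In this second list the matched windows were those of ASNS and overlapping windows of MTHFD1L that hold the same site. Windows of a gene can overlap, so a share of windows is not a share of genes. The NF-kB element stood in 25.6% of all windows, in 31.2% of the members' windows, in 30.0% of those of genes below additivity, and in 18 of 24 windows of the NF-kB list. TTTGAA stood in 15.2% of all windows, in 10.02% of the members' windows, in 16.4% of those of genes above additivity, and in 33 of 53 windows of the mitosis list. So the NF-kB element was no more frequent among all genes below additivity than among the members, whereas each of these 4 lists held its element in a larger share of windows than the members. The AP-1 list did not stand out for its own element, TGANTCA, which stood in 1 of 19 of its windows (5.26%), in 5.02% of the members' windows and in 7.71% of all windows.

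Most genes were close to additivity. The median departure over the 12200 genes was -0.004, the quartiles were -0.25 and 0.24, and the central 95% between -0.88 and 0.81. A departure of at least 2-fold was found for 364 genes (2.98% of the members). Of these, 226 were below additivity (1.85%) and 138 above (1.13%), so 37.9% of the departing genes were above. This split depends on the scaling. With each library rescaled to the same FPKM sum, 62.9% were above, and the median departure of all genes moved to 0.13. The FPKM sums as deposited were 543975 for the control and 577409, 588892 and 566797 for As2O3, GSK458 and the combination. Depth relative to the control was estimated from the most common ratio to it among genes under 0.5 FPKM in the control. The estimate was 96.3% with As2O3, 109% with GSK458 and 85.8% with both, and the absolute depth is unknown. Of the genes with a ratio near 1, 350 of 864, 354 of 893 and 362 of 844 held the common ratio, in that order.

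Departures above additivity leaned to low levels. At a mean of 1 to 2 FPKM, 26 genes were above and 24 below of 1037. At 20 to 100 FPKM, 19 were above and 57 below of 3225, and over 100 FPKM 3 were above and 16 below of 742. For 13 of the 138 genes above additivity the additive value lay under the level that 0 FPKM gives on this scale, so these genes could only come out above it. Such a value was found for 25 of all 12200 genes. Just inside the filter on the mean, CSF3R had a departure of 1.16 and NUDT17 one of -0.26, and just outside it APOBEC3B-AS1 had -0.83 and LOC101927043 had -0.88. By their symbols, 24 of the 226 genes below and 29 of the 138 above were marked as uncertain transcripts (5.35% of all members). These are antisense, intronic, overlapping, readthrough, numbered pseudogene or uncharacterised transcripts. The marking misses some, such as the readthrough NEDD8-MDP1. The values of such transcripts are uncertain because they can share reads with other genes.

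The genes below additivity had a common form. As2O3 alone was at least 1.5-fold above the control for 202 of the 226, against 7.31% of all members. The departure subtracts this difference, so genes with a high As2O3 or a low control library are favoured by its construction, and the share is a description of the genes and not a separate result. As2O3 was the highest library for 159 of them (30.1% of all members), and GSK458 alone was at least 1.5-fold above the control for 110 (8.48% of all members). Both drugs alone were higher for 101 genes, As2O3 only for 87, and As2O3 was higher while GSK458 was lower for 14. Added to GSK458, arsenic was still at least 1.5-fold higher for 19 of the 202, within 1.5-fold for 167 and lower for 16. The combination lay between the other libraries for 160 of the 226, above all of them for 11 and below all of them for 55 (24.3%, against 22.3% of all members). The departure is this second arsenic difference minus the first, so the choice of genes also favours a small one, and the split is again a description. Of all 892 members at least 1.5-fold higher with As2O3 alone, 767 were within 1.5-fold when arsenic was added to GSK458 (86.0%), 109 higher and 16 lower. A choice by a cut on 1 pair of libraries favours a smaller difference in a second pair. Of the 1034 members at least 1.5-fold higher with GSK458 alone, 436 were also higher when GSK458 was added to As2O3 (42.2%). The plot of the arsenic difference without and with GSK458 shows both sets of genes on either side of the diagonal.

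**Figure D1:**
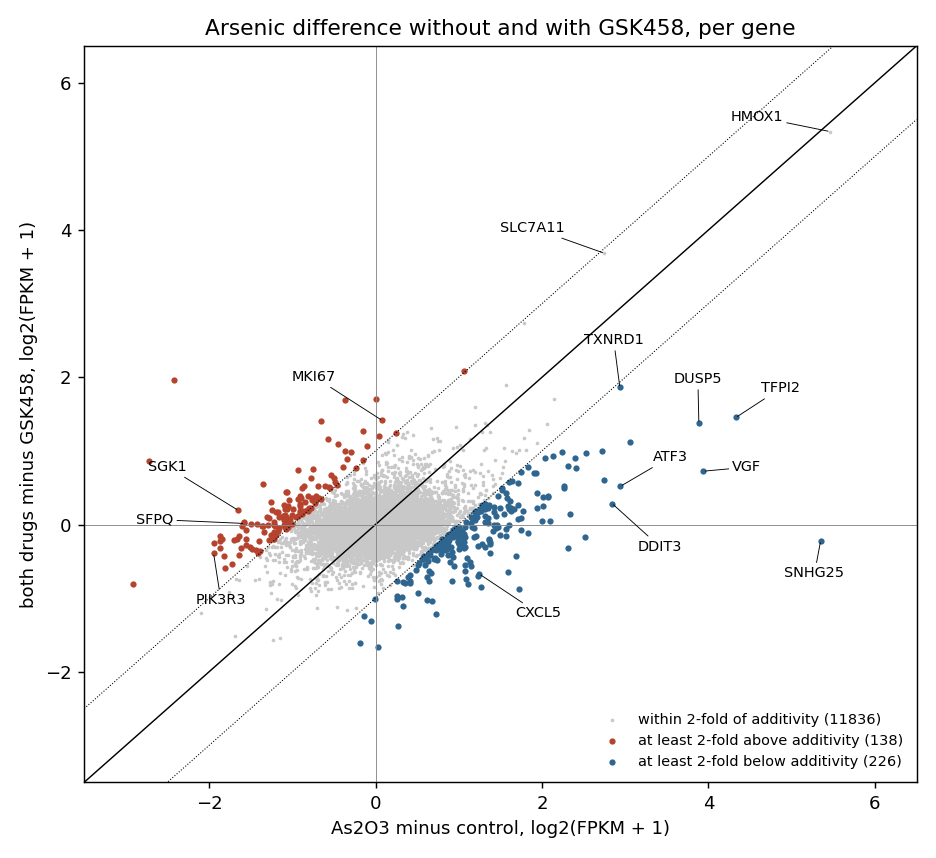
Each point is 1 of 12200 genes, with the difference of As2O3 from control on the horizontal axis and of both drugs from GSK458 on the vertical axis, both in log2(FPKM + 1). The solid diagonal is additivity and the dotted lines are 2-fold from it. Blue points, 226 genes below additivity, spread along the right near a vertical value of 0, red points, 138 genes above, lie to the left, and HMOX1 lies on the diagonal far to the upper right.

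The genes above additivity had the mirror form. As2O3 alone was at least 1.5-fold below the control for 116 of the 138, against 6.35% of all members, again a difference that the departure contains. As2O3 was the lowest library for 102 of them (27.1% of all members), and GSK458 alone was at least 1.5-fold below the control for 64 (10.2% of all members). Both drugs alone were lower for 54, As2O3 only for 58 and GSK458 only for 10. Added to GSK458, arsenic was within 1.5-fold for 108 of the 116, lower for 2 and higher for 6. Of all 775 members at least 1.5-fold lower with As2O3 alone, 707 were within 1.5-fold beside GSK458 (91.2%), a share with the same limit. Of the 1249 members at least 1.5-fold lower with GSK458 alone, 732 were also lower beside As2O3 (58.6%). The combination lay between the other libraries for 89 of the 138 (64.5%, against 56.5% of all members), above all of them for 39 (28.3%, against 21.2%) and below all of them for 10 (7.25%, against 22.3%). The library farthest from the median of the other 3 was As2O3 for 68 genes (49.3%) and the control for 48 (34.8%), and among the genes below additivity for 108 (47.8%) and 92 (40.7%). Over all members these shares were 35.4% and 32.9%, so the control's share among the genes above was near that of all members. What separate cultures of these groups would give was not tested.

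**Figure D2:**
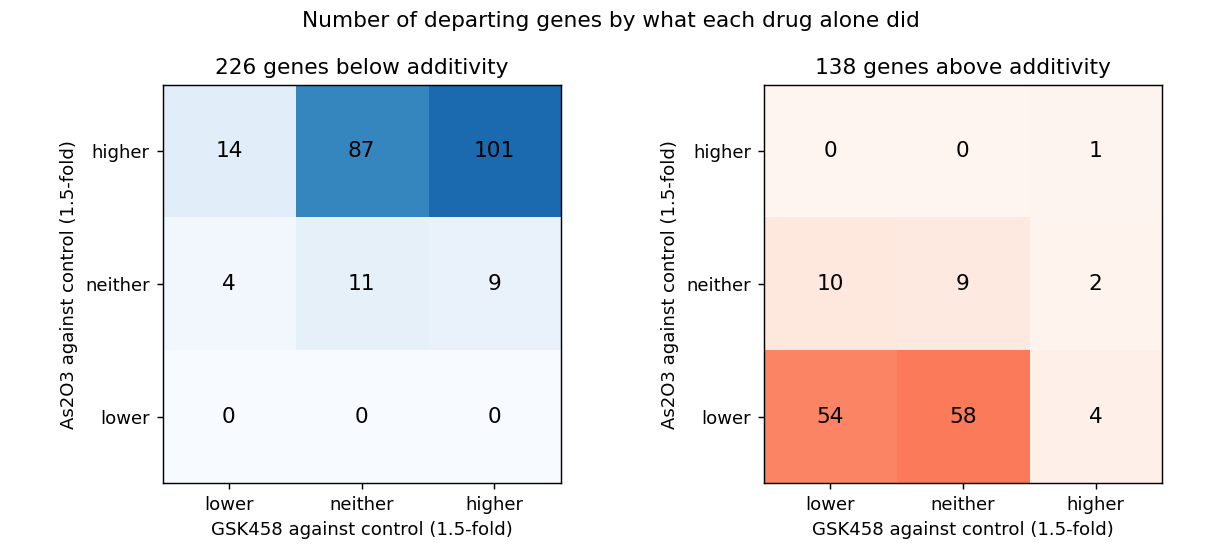
Each square gives the number of departing genes by whether As2O3 alone (vertical) and GSK458 alone (horizontal) were at least 1.5-fold higher, at least 1.5-fold lower or neither, against the control. Of the 226 genes below additivity, 101 were higher with each drug and 87 with As2O3 only, and of the 138 above, 54 were lower with each drug and 58 with As2O3 only.

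The largest departures below additivity among genes above 0 in all 4 libraries included secreted and stress proteins. VGF, a secreted neuropeptide precursor, was at 0.581 FPKM untreated, 23.3 on As2O3, 0.619 on GSK458 and 1.67 on the combination, a departure of -3.22. Only the As2O3 library was high. TFPI2, an inhibitor of serine proteases that is known as a marker of clear cell carcinoma, was at 32.0 FPKM untreated, 664 on As2O3, 109 on GSK458 and 301 on the combination, a departure of -2.88. Here all 3 treated libraries were above the control, and additivity would have placed the combination at 2215 FPKM. DUSP5, a phosphatase that inactivates ERK, had the same order, with 10.8 FPKM untreated, 174 on As2O3, 31.5 on GSK458 and 83.6 on the combination, a departure of -2.50. GADD45A, a growth arrest and DNA damage gene that both p53 and FOXO factors are known to raise, was at 4.78 FPKM untreated, 32.0 on As2O3, 12.01 on GSK458 and 10.6 on the combination, a departure of -2.68.

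For GADD45A the combination was no higher than GSK458 alone, while for TFPI2 and DUSP5 it stayed well above it. SAT1, which acetylates polyamines, was at 134 FPKM untreated, 905 on As2O3, 319 on GSK458 and 485 on the combination, a departure of -2.14. EREG, a ligand of the EGF receptor, was close to the control level in the combination, with 11.8 FPKM untreated, 37.5 on As2O3, 20.5 on GSK458 and 12.8 on the combination, a departure of -2.23. MAFF (-2.20), CA8 (-2.11), GATSL3 (-2.05) and RNF5 (-2.60) completed the 12 largest with the stress genes DDIT3 and ATF3, and RNF5 is uncertain because it has a near-identical pseudogene. In the plot of levels by library the combination of each of these genes lies under its additive value, and As2O3 is the highest library for all of them but RNF5 and CA8.

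**Figure D3:**
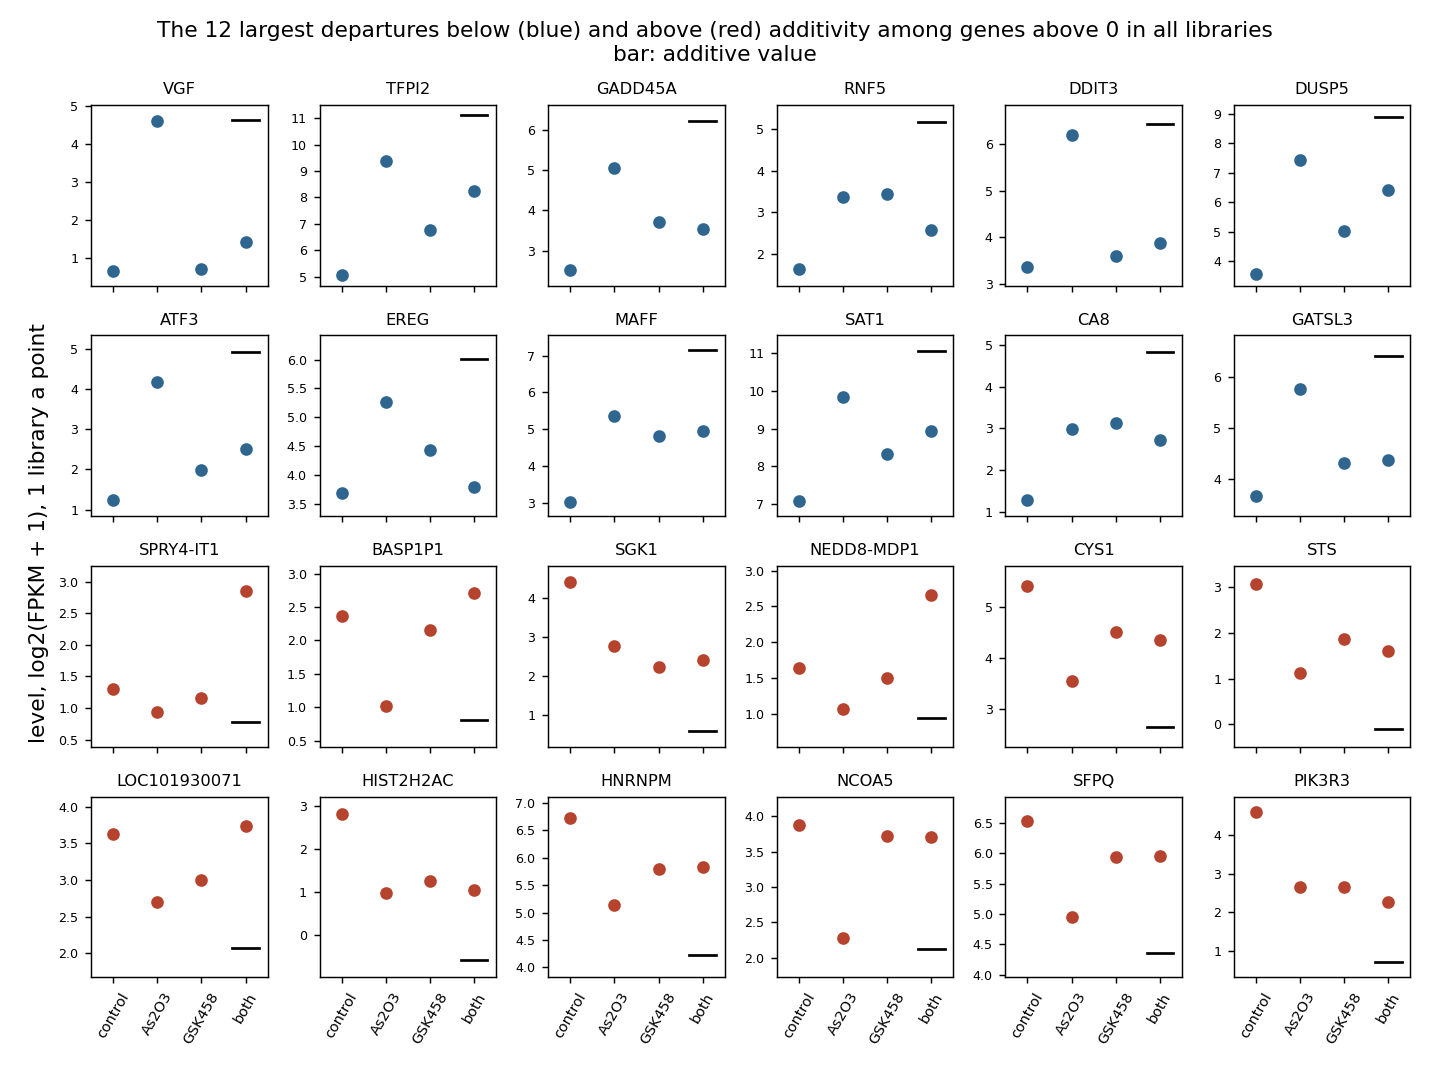
Each panel shows 1 gene with its level, log2(FPKM + 1), in the control, As2O3, GSK458 and combined library (1 library a point) and a bar at the level that additivity gives for the combination. The 12 blue genes lie under the bar, by 3.22 for VGF and 2.05 for GATSL3, and the 12 red genes lie above it, by 2.06 for SPRY4-IT1 and 1.55 for PIK3R3.

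The regulators of the integrated stress response were among the lists farthest below additivity. Over all members, 1.85% were at least 2-fold below additivity and 1.13% above. Of 19 regulators measured, 7 were at least 2-fold below additivity and 0 above, and 3 had a departure over 0, against 49.6% of all members. Their median departure was -0.85. Their median difference from the control was 0.95 on As2O3, 0.05 on GSK458 and 0.19 on the combination. DDIT3, which encodes the death-promoting factor CHOP, was at 9.26 FPKM untreated, 72.7 on As2O3, 11.1 on GSK458 and 13.7 on the combination, a departure of -2.56. The high level was in the As2O3 library alone, and additivity would have given 86.0 FPKM. ATF3, a stress-induced transcription factor, was at 1.35 FPKM untreated, 17.1 on As2O3, 2.97 on GSK458 and 4.70 on the combination, a departure of -2.42.

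CHAC1, which degrades glutathione, was at 4.18 FPKM untreated, 23.9 on As2O3, 2.73 on GSK458 and 4.25 on the combination, a departure of -1.77. TRIB3, a pseudokinase induced by ATF4, was at 16.6, 72.8, 14.5 and 19.2 FPKM in the same order, a departure of -1.69. For both, the combination was close to the control. GDF15, a secreted stress cytokine, differed in that it stayed high, with 99.9 FPKM untreated, 836 on As2O3, 300.5 on GSK458 and 652 on the combination, a departure of -1.94. The ATF4 transcript itself was higher in all treated libraries, by similar amounts, with 254 FPKM untreated, 534 on As2O3, 485 on GSK458 and 443 on the combination, a departure of -1.20. DDIT3, CHAC1 and TRIB3 were well above the control in the As2O3 library only. ATF4 protein was not measured, and its part in the levels of these genes was not tested.

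Enzymes of serine, asparagine and one-carbon supply, known targets of ATF4, went further, to levels under the control. Of 17 measured, 5 were at least 2-fold below additivity (3 with a pseudocount of 5 FPKM) and 0 above, against 1.85% and 1.13% of all members. Their median departure was -0.50. The median differences from the control were 0.56 on As2O3, -0.57 on GSK458 and -0.61 on the combination. ASNS, which makes asparagine, was at 16.1 FPKM untreated, 67.8 on As2O3, 8.41 on GSK458 and 10.2 on the combination, a departure of -1.75. PHGDH, the first enzyme of serine synthesis, was at 24.7, 69.4, 5.87 and 6.47 FPKM in that order, a departure of -1.33. The combination was near the GSK458 library for both genes, whatever the arsenic level alone. MTHFD2, of mitochondrial folate metabolism, had a departure of -1.59 and ALDH1L2 one of -1.34. Of 22 aminoacyl-tRNA synthetases, 2 were at least 2-fold below (CARS -1.10, YARS -1.09), and 0 with each library rescaled to the same sum, with a median of -0.29. Amino acid transporters did not share this as a list, with a median of -0.02 over 14 genes that changed sign under 3 alternatives. Among them SLC7A5, a leucine carrier, was at 11.2 FPKM untreated, 52.5 on As2O3, 4.59 on GSK458 and 9.69 on the combination, a departure of -1.20, and SLC7A11, the cystine carrier, went the other way with 0.94.

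**Figure D4:**
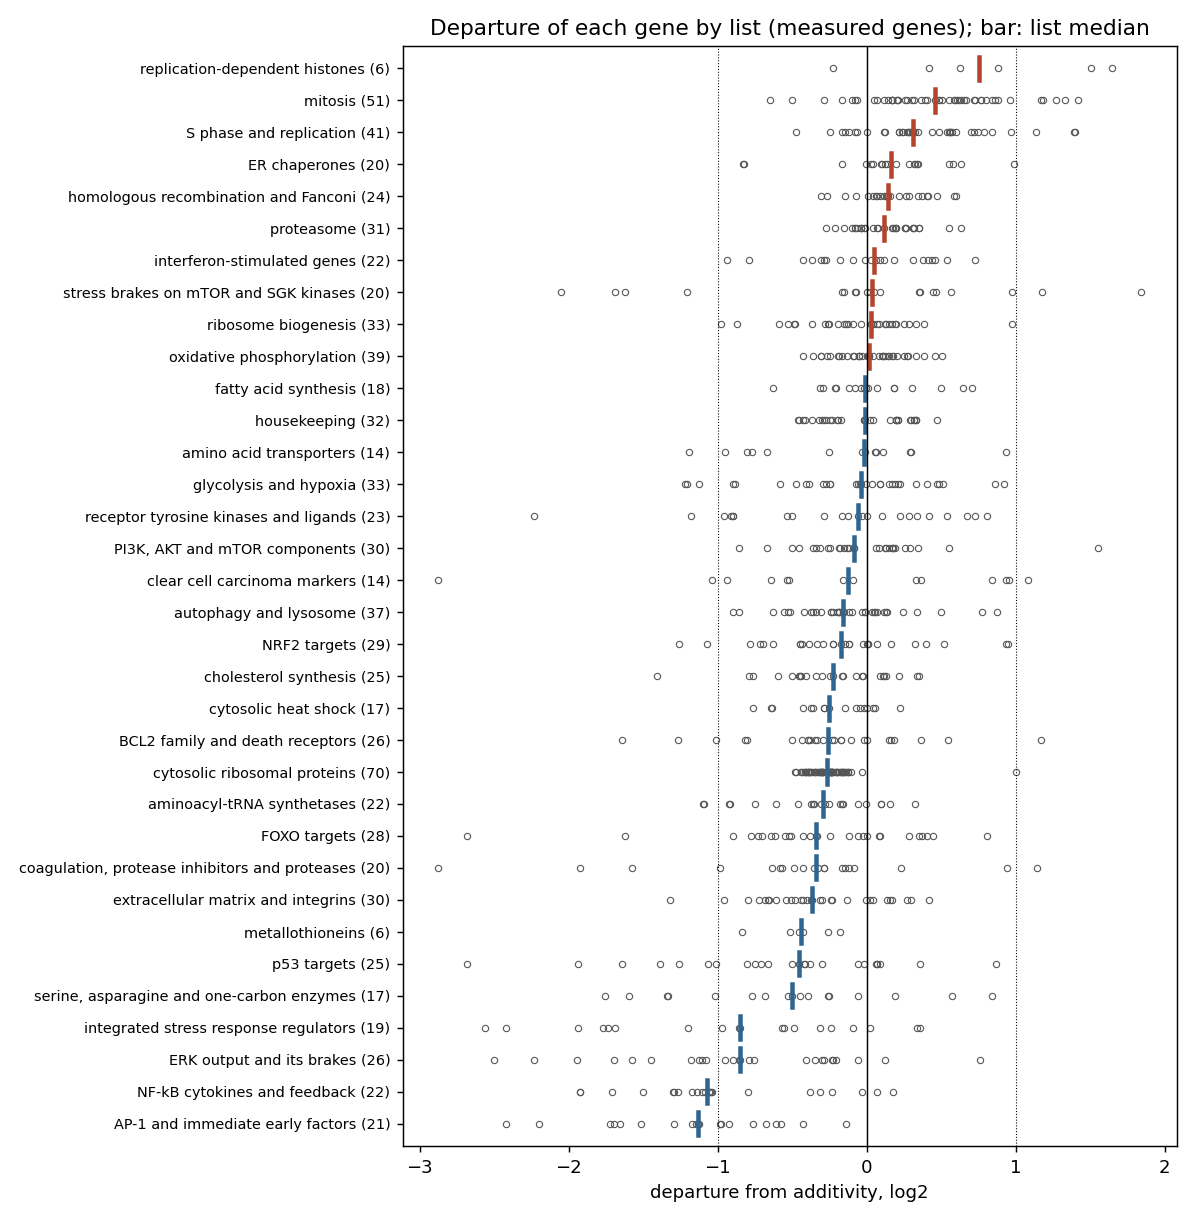
Each open point is 1 measured gene of a list, placed by its departure from additivity (log2), and the bar is the list's median, with the number of measured genes in parentheses. Dotted lines mark 2-fold. The AP-1, NF-kB, ERK and integrated stress response lists have medians between -1.13 and -0.85, mitosis and histones lie to the right at 0.46 and 0.75, and housekeeping genes centre on -0.01.

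Inflammatory genes driven by NF-kB were mostly below additivity. Of 22 measured, 15 were at least 2-fold below and 0 above (1.85% and 1.13% of all members), with a median departure of -1.07. The number past 2-fold was 6 with a pseudocount of 5 FPKM and 10 with each library rescaled to the same sum. Their median difference from the control was 0.74 on As2O3, 0.13 on GSK458 and -0.29 on the combination. CXCL5, a chemokine that attracts neutrophils, was at 38.0 FPKM untreated, 91.6 on As2O3, 23.0 on GSK458 and 14.1 on the combination, a departure of -1.92. CCL20, a chemokine of lymphocytes and dendritic cells, was at 2.59, 6.77, 2.59 and 1.05 FPKM in that order, also -1.92. TNF, the inflammatory cytokine, was at 16.2, 37.0, 17.2 and 11.3 FPKM, a departure of -1.71. In all 3 the combination was the lowest of the 4 libraries. NFKB2, a subunit and target of the pathway, instead stayed above the control, with 33.9 FPKM untreated, 95.5 on As2O3, 55.3 on GSK458 and 54.1 on the combination, a departure of -1.50. SOD2, the mitochondrial superoxide dismutase, was highest in the combination, at 161, 575, 357 and 617 FPKM, a departure of -1.04.

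AP-1 and immediate early factors had a median of -1.13, close to that of the NF-kB list, and without the filter the medians were -0.98 and -1.04. Of 21 measured, 12 were at least 2-fold below additivity and 0 above, and 0 had a departure over 0. Over all members these shares were 1.85%, 1.13% and 49.6%. The median difference from the control was 1.01 on As2O3, 0.29 on GSK458 and 0.33 on the combination. MAFF, a small MAF factor, was at 7.19 FPKM untreated, 40.4 on As2O3, 27.1 on GSK458 and 29.9 on the combination, a departure of -2.20. NR4A1, an orphan nuclear receptor, was at 8.38, 60.7, 10.5 and 21.8 FPKM in that order, a departure of -1.72. MYC, the growth-promoting factor, was at 45.2, 96.2, 88.4 and 57.0 FPKM, a departure of -1.70. MYC was thus high with each drug alone and near the control with both. The lists share genes, such as ATF3 with the integrated stress response list and MYC with the ERK list, so they are not separate observations. Immediate early genes are also known to react to the handling of cultures, and they moved with the stress lists here. Their part in the results of those lists was not tested.

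Genes downstream of ERK, a kinase that growth factor receptors activate, and the phosphatases that restrain it had a median of -0.85. Of 26 measured, 10 were at least 2-fold below additivity and 0 above, against 1.85% and 1.13% of all members. With a pseudocount of 5 FPKM, 6 were below. Besides DUSP5 and EREG, PHLDA1 had 14.4 FPKM untreated, 53.7 on As2O3, 22.5 on GSK458 and 20.6 on the combination, a departure of -1.95. The urokinase pair went the same way. PLAU, the urokinase that activates plasminogen, was at 161 FPKM untreated, 379 on As2O3, 218 on GSK458 and 134 on the combination, a departure of -1.92, and its receptor PLAUR had -1.57. For PLAU and PLAUR the combination was the lowest library. The receptor EPHA2 had a departure of -1.18. The 23 receptor tyrosine kinases and ligands as a list had a median of -0.06, which changed sign under rescaling to a common sum, so EREG and EPHA2 stood apart from most of that list.

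A minority of growth arrest and death genes was past 2-fold. Of 25 p53 targets, 7 were at least 2-fold below additivity (5 with a pseudocount of 5 FPKM) and 0 above, with a median of -0.46. Over all members 1.85% were below. CDKN1A, the p21 inhibitor of cyclin-dependent kinases, was at 79.7 FPKM untreated, 244 on As2O3, 90.4 on GSK458 and 105 on the combination, a departure of -1.39. PMAIP1, which encodes the BH3-only protein NOXA, was at 1.95, 14.6, 0.953 and 2.32 FPKM in that order, a departure of -1.64. BBC3, which encodes PUMA, had 20.1, 39.8, 19.2 and 18.4 FPKM, a departure of -1.01. For these 3 the As2O3 library was the only one well above the control. BIRC3, an inhibitor of cell death and a target of NF-kB, had -1.27. Among 26 BCL2 family and death receptor genes, 3 were at least 2-fold below and 1 above (1 and 0 with a pseudocount of 5 FPKM), with a median of -0.26, and the 1 above was BIRC5 (survivin), a gene expressed in mitosis, at 1.17.

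NRF2 targets had a median departure near 0, although their median difference with As2O3 was the highest of the lists with at least 5 measured genes. Of 29 measured, 2 were at least 2-fold below and 0 above, against 1.85% and 1.13% of all members. A departure over 0 was found for 9, against 49.6% of all members, and the median was -0.17. The counts were 4 above and 2 below with a pseudocount of 0.1 FPKM. They were 2 above and 1 below with each library rescaled to the same sum. The median difference from the control was 1.28 on As2O3, 0.14 on GSK458 and 1.12 on the combination. HMOX1, haem oxygenase 1, was at 30.3 FPKM untreated, 1375 on As2O3, 47.2 on GSK458 and 1949 on the combination, a departure of -0.12. The arsenic difference of HMOX1 was thus about the same size with and without GSK458, unlike that of DDIT3. TXNRD1, thioredoxin reductase, was at 60.6 FPKM untreated, 470 on As2O3, 154 on GSK458 and 563 on the combination, a departure of -1.07. The combination was its highest library, and GSK458 alone was also well above the control. OSGIN1 had -1.26. The 6 metallothionein and zinc export genes measured had a median of -0.44 with 0 past 2-fold, MT2A being the lowest at -0.83, and the 17 cytosolic heat shock genes had a median of -0.25 with 0 past 2-fold.

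Most cell cycle genes had departures over 0, few of them past 2-fold. They were lower with GSK458 than in the control, and less so when arsenic was added to GSK458. Of 51 mitosis genes, 5 were at least 2-fold above additivity and 0 below, 44 had a departure over 0, and the median was 0.46. Over all members the shares above, below and over 0 were 1.13%, 1.85% and 49.6%. The mitosis genes were compared with the control as well. Their median difference from the control was 0.34 on As2O3, -2.60 on GSK458 and -1.74 on the combination. MKI67, the proliferation marker, was at 31.7 FPKM untreated, 33.6 on As2O3, 2.08 on GSK458 and 7.21 on the combination, a departure of 1.33. FOXM1, which activates mitotic genes, was at 19.98, 17.97, 1.65 and 5.41 FPKM in that order, a departure of 1.42. CENPF, a kinetochore protein, had 20.3, 16.4, 3.40 and 7.70 FPKM, a departure of 1.27. In these 3 the order was control and As2O3 high, the combination low and GSK458 lowest. CCNA2, which encodes cyclin A2, had a smaller departure of 0.40. The number of mitosis genes past 2-fold depended on the settings. It was 0 with a pseudocount of 5 FPKM, where the median was 0.09 and MKI67 had 0.71, 14 with a pseudocount of 0.1 FPKM and 12 with each library rescaled to the same sum.

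S phase and replication genes had a median of 0.31. Of 41, 3 were at least 2-fold above additivity (1.13% of all members), 0 below (1.85%) and 34 over 0 (49.6%). The number above was 1 with a pseudocount of 5 FPKM, 7 with 0.1 FPKM and 6 with each library rescaled to the same sum. RRM2, a subunit of ribonucleotide reductase, was at 52.1 FPKM untreated, 28.2 on As2O3, 1.36 on GSK458 and 2.41 on the combination, a departure of 1.39. UHRF1, which maintains DNA methylation, was at 15.9, 8.94, 0.811 and 1.80 FPKM in that order, a departure of 1.40. Unlike MKI67, both were also lower with As2O3 alone. Their additive values, 0.298 FPKM for RRM2 and 0.0625 FPKM for UHRF1, were close to 0, which left little room below them. GINS2, a helicase subunit, had 1.14. Of 6 replication-dependent histone genes measured, 2 were at least 2-fold above, HIST2H2AC (1.65) and HIST1H2AE (1.51), with a median of 0.75. Histone transcripts mostly lack poly(A) tails, and these libraries were poly(A)-selected. In the control HIST2H2AC was at 6.12 FPKM and HIST1H2AE at 2.98, and 0 of the list was past 2-fold with a pseudocount of 5 FPKM or a minimum mean of 5 FPKM. The additive value of HIST2H2AC lay below 0 FPKM, and that of HIST1H2AE was 0.00326 FPKM. The 24 homologous recombination and Fanconi genes had a median of 0.14 with 0 past 2-fold.

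Among genes around PI3K and mTOR, departures went both ways. SGK1, a kinase related to AKT and a substrate of mTOR complex 2, was at 20.5 FPKM untreated, 5.86 on As2O3, 3.66 on GSK458 and 4.33 on the combination, a departure of 1.84. All 3 treated libraries were low and close to each other. Additivity would have given 0.487 FPKM. Its relative SGK2 had the same form, with 19.5, 6.75, 5.17 and 4.27 FPKM and a departure of 1.17. So did PIK3R3, a regulatory subunit of PI3K, with 23.2, 5.28, 5.33 and 3.83 FPKM and a departure of 1.55. The additive values were low here too, 1.33 FPKM for SGK2 and 0.643 FPKM for PIK3R3. The list of stress brakes on mTOR and SGK kinases had 2 of 20 genes above and 4 below, with a median of 0.03. Over all members 1.13% were above and 1.85% below. The list genes below were TRIB3, GATSL3, TXNIP (-1.62) and NDRG1 (-1.20). With a pseudocount of 5 FPKM the list had 1 above and 4 below. TXNIP, which restrains glucose uptake, was at 184 FPKM untreated, 388 on As2O3, 347 on GSK458 and 237 on the combination. Like MYC, TXNIP was higher with each drug alone than with both.

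The 30 PI3K, AKT and mTOR components had a median of -0.09, of which PIK3R3 alone was past 2-fold, and this median changed sign under rescaling to a common sum. FOXO targets had a median of -0.34 with 2 of 28 at least 2-fold below (GADD45A and TXNIP) and 0 above. Over all members 1.85% were below and 1.13% above. GPX3, a secreted glutathione peroxidase, was at 2.12 FPKM untreated, 4.55 on As2O3, 155 on GSK458 and 144 on the combination, a departure of -0.94. RIMKLB, a glutamate ligase, was at 18.2, 36.5, 89.1 and 224 FPKM in that order, a departure of 0.36, with the combination highest. The large differences under GSK458 of these 2 genes were thus within 2-fold of additivity.

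Some other genes above additivity were lower with arsenic than in the control. CYS1, a cilium protein, was at 41.4 FPKM untreated, 10.6 on As2O3, 21.8 on GSK458 and 19.4 on the combination, a departure of 1.70. NCOA5, a nuclear receptor coregulator, was at 13.7, 3.82, 12.2 and 12.1 FPKM in that order, a departure of 1.59. For NCOA5 the As2O3 library alone was low. STS, steroid sulfatase, had 7.31, 1.16, 2.61 and 2.04 FPKM and 1.69, and its additive value lay below 0 FPKM. SPRY4-IT1 (2.06), BASP1P1 (1.90), NEDD8-MDP1 (1.73) and LOC101930071 (1.67) also stood among the 12 largest. In all 4 the combination was the highest library. SPRY4-IT1 was at 1.48, 0.919, 1.22 and 6.19 FPKM in that order, and NEDD8-MDP1 at 2.11, 1.09, 1.84 and 5.33 FPKM. For SPRY4-IT1 and NEDD8-MDP1 each drug alone was within 1.5-fold of the control. By their names all 4 are intronic, pseudogene, readthrough or uncharacterised transcripts with uncertain values, although NEDD8-MDP1 was not marked so in the counts. Genes listed at 0 in 1 library are given by their values only, since an exact 0 can be a failed estimate. CDC37L1-AS1 was at 5.61 FPKM in the control, listed at 0 with As2O3, and at 3.25 with GSK458 and 6.71 with both. MIR503HG was at 6.52, 0, 2.26 and 0.861 FPKM in that order, and SNHG25 was listed at 0 in the control and stood at 39.7, 52.2 and 44.6 FPKM in the treated libraries.

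Metabolic and housekeeping lists lay near 0, and 0 of 32 housekeeping genes was past 2-fold, with a range from -0.46 for C1orf43 to 0.47 for POLR2A and a median of -0.01. The medians were 0.01 for 39 oxidative phosphorylation genes, -0.04 for 33 of glycolysis and hypoxia, -0.01 for 18 of fatty acid synthesis and 0.12 for 31 proteasome genes. Past 2-fold in these 4 lists were 3 glycolysis and hypoxia genes, all below, which included the glucose carrier SLC2A3 (-1.22). Of all members 2.98% were past 2-fold. Of 25 cholesterol synthesis genes, INSIG1 (-1.41) alone was past 2-fold, with a median of -0.23. The 70 cytosolic ribosomal proteins had a median of -0.27 and 69 were below 0, the exception being RPL21 (1.00), which has many processed pseudogenes. The shift was narrow, and it was -0.13 when each library was rescaled to the same FPKM sum.

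The 20 ER chaperone genes went slightly upward, with a median of 0.17, 16 over 0 and 0 past 2-fold. CALR, calreticulin, was at 872 FPKM untreated, 480 on As2O3, 269 on GSK458 and 294 on the combination, a departure of 0.99. The 37 autophagy and lysosome genes had a median of -0.16, the 30 extracellular matrix genes and integrins -0.37 with ITGA3 at -1.32, and the 22 interferon-stimulated genes 0.05.

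The label of the line was checked against markers. PAX8, a factor of Müllerian epithelium, was at 96.8 FPKM untreated, 149 on As2O3, 83.6 on GSK458 and 88.7 on the combination. It was present throughout, as were the keratins KRT8 and KRT18, while KRT7 (1.45 to 2.79 FPKM) and EPCAM (0.608 to 1.71 FPKM) were low. The 14 clear cell carcinoma markers measured had a median departure of -0.13 (1 above, FXYD2 at 1.08, and 2 below, TFPI2 and SOD2). Of all members 1.13% were above and 1.85% below. Of other cell types, 10 fibroblast markers summed to 2.59 to 6.08 FPKM a library with COL3A1 and LUM at 0, 11 immune markers to 1.35 to 4.53 FPKM with PTPRC and CD3D at 0, and 8 endothelial markers to 0.369 to 1.68 FPKM with KDR at 0. The immune sum was highest with As2O3, where CD68, a lysosomal protein, gave 4.15 FPKM of it.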

How the data were processed

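RNA from 4 TOV21G cultures was sequenced after poly(A) selection with a stranded kit, per the labels' protocols. The deposited table holds FPKM values that the authors computed. Tools listed in the submitters' processing notes are Cuffdiff 2.2.1, TopHat2 2.1.1, SAMtools 0.1.18 and Bowtie2 2.2.8, with genome hg19. No source used here gives the annotation, the strand setting or the handling of multiply mapped reads. FPKM keeps no counts, so depth per library and counting error are unknown.

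Values were used as deposited, with a pseudocount of 1 FPKM, which pulls the fold changes of low genes towards 0. With 1 library a group no test was run. The calculation was tested on simulated data. Python 3.11.15, pandas 2.3.3, numpy 2.4.6 and matplotlib 3.10.9 were used, and 0 value columns lacked a sample.

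The members, the 37 gene lists and the rules were chosen with earlier results of these data known. A list gives its genes' counts and median beside those of all members. Named were the 12 largest departures each way among genes above 0 in all 4 libraries and with at least 5 FPKM in 1, up to 4 genes each way per list past 2-fold (the 2 largest where none was), and 14 fixed genes, with marker and boundary genes besides. Some genes that the rule or the lists hold are not reported here. Alternatives were other pseudocounts (0.1 or 5 FPKM), an unfiltered table, a minimum mean of 5 FPKM, 3 scalings, a 1.5-fold threshold, small RNA symbols kept, genes above 0 in all libraries only, uncertain symbols left out, and additivity in FPKM.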

Additional observations from a re-analysis of the deposited data

Results flagged for a closer look

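For 4 genes a drug's difference went opposite ways, by at least 2-fold each, without and with the other drug. The differences of these differences were not tested, and each side is 1 pair of libraries. TFPI2 was higher with GSK458 than in the control by 1.74 on the log2 scale and lower by 1.14 when GSK458 was added to As2O3, which gives the departure of -2.88. GADD45A was higher by 1.17 and then lower by 1.51, a departure of -2.68. DUSP5 was higher by 1.46 and then lower by 1.05, a departure of -2.50. In all 3 the GSK458 library lay above the control and the combination lay below As2O3. NARR was at 4.36 FPKM in the control, listed at 0 with either drug alone and at 2.89 with both. Its value of 4.38 on the departure scale rests on those zeros, which can be failed estimates, and gives no fold.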

How the results depend on the processing

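No paired analysis was possible because each group has 1 library. The counts of departures of at least 2-fold, 138 above and 226 below, moved to 359 and 369 with a pseudocount of 0.1 FPKM and to 26 and 88 with 5 FPKM. A mean of at least 5 FPKM gave 68 above and 153 below, rescaling each library to the same sum gave 368 above and 217 below, and a 1.5-fold threshold gave 774 and 900. The other 400 values of these counts and of the list medians stayed within 1.5-fold, which for a median near 0 is a wide allowance (mitosis ranged from 0.09 to 0.65). For single genes 1158 departures stayed within it and 24 did not. Of the 72 named genes past 2-fold, 48 remained so with a pseudocount of 5 FPKM, 67 after rescaling to a common sum and 71 with upper-quartile scaling. On the linear FPKM scale all 364 genes past 2-fold kept their direction, but for part of them no other outcome was possible. Among these were the 54 genes above additivity with both drugs lower. The 14 genes below additivity with As2O3 higher and GSK458 lower were others. Direction also says nothing of size. TXNRD1, with a departure of -1.07, had a linear departure of -1.27 FPKM, beside 563 FPKM in the combination. The medians of amino acid transporters, PI3K components, receptor tyrosine kinases, fatty acid synthesis, glycolysis, ribosome biogenesis, clear cell markers and housekeeping changed sign under 1 to 3 alternatives. With 1 library a group and unknown depth, the error of a departure, which adds that of 4 libraries, could not be estimated.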

Other observations

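HNRNPM and SFPQ stood among the 12 largest departures above additivity. HNRNPM, which regulates alternative splicing, was at 104 FPKM untreated, 34.2 on As2O3, 54.5 on GSK458 and 56.0 on the combination, a departure of 1.62. SFPQ, a paraspeckle protein, was at 91.5, 30.1, 60.1 and 60.7 FPKM in that order, a departure of 1.59. In both the As2O3 library was the lowest and the combination was close to GSK458. They do not stand for RNA-processing genes in general. A list of 50 such genes, chosen after the values were seen, had a median of 0.12 with 18 below 0, and SNRPA1 was at -0.71.

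Coagulation and protease genes also went both ways. The 20 measured had a median of -0.34. Of them, 3 were at least 2-fold below additivity (TFPI2, PLAU and PLAUR) and 1 above, against 1.85% and 1.13% of all members. These counts were 2 below and 0 above with a pseudocount of 5 FPKM, and 4 and 2 with each library rescaled to the same sum. The 1 above was FGA, a fibrinogen chain, at 21.5 FPKM untreated, 9.71 on As2O3, 7.38 on GSK458 and 7.83 on the combination, a departure of 1.15. Like SGK1, FGA was low in all 3 treated libraries to a similar degree.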
